A study of Homo sapiens with 4 samples.

Results

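The peaks described here are all those that the deposited lists of lactylated lysine 5 of histone H4 (H4K5la) place on human chromosomes 14, 15 and 16, chosen by chromosome name alone. They number 421 of the 4680 peaks on chromosomes 1 to 22, X and Y (4698 on all sequences), 176 of 1937 in wild-type (WT) cells and 245 of 2743 in DNAJC12KO cells. The cells are SH-SY5Y, a human neuroblastoma line, and chromatin immunoprecipitation followed by sequencing compared WT cells with cells in which DNAJC12 was knocked out. DNAJC12 is a J-domain protein that helps the hydroxylases of phenylalanine, tyrosine and tryptophan to fold. Each genotype had 1 input library (no antibody) and 1 library made with an antibody against H4K5la, 4 libraries in all, with no treatment named. The labels do not say how the knockout was made or whether it is a single clone. With 1 library per group no difference between the genotypes has a replicate check and none was tested. Sequencing depth is unknown because the lists carry no read numbers. They also hold no RNA values, so the cell line could not be checked against its markers.

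Lactylation is the attachment of a lactate-derived group to lysine, and on histones it is written from lactyl-CoA, so that it is studied as a link between glycolysis and chromatin. Lysine 5 lies in the tail of histone H4 and can also carry an acetyl group. Acetylation and lactylation of histone tails are best known at promoters and enhancers of active genes. The short arm of chromosome 16 ends in one of the most gene-rich stretches of the genome, which includes the alpha globin genes. The long arm of chromosome 14 ends with the immunoglobulin heavy chain locus.

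Few of the 421 peaks lay on a promoter, and the sequences of those that did are shown first because they can be read against the usual site of such marks. RefSeq promoters (GRCh38.p14) run from 250 bases before to 50 bases after a transcription start, and 1676 of the 2050 protein-coding genes of these chromosomes had such an entry. A WT peak overlapped the promoter of 4 of them, LINGO1, PDIA2, MEFV and MYL11, and a DNAJC12KO peak overlapped that of 1, ANPEP. Over all chromosomes 0.139% of genes with an entry had a promoter in a WT peak and 0.246% in a DNAJC12KO peak. No promoter of these chromosomes was covered in both lists. The bases before the start are given for 4 of the 5, 5′ to 3′ on the gene's own strand, with every CG dinucleotide in capitals. MEFV, which encodes the inflammasome protein pyrin, is shown from chr16:3256634-3256883 (minus strand), where the WT peak covered 83 of the 250 bases. MYL11, a myosin light chain of fast skeletal muscle, is shown from chr16:30372044-30372293 (plus strand), of which the WT peak covered 154 bases. PDIA2, a protein disulfide isomerase, is shown from chr16:283011-283163 (plus strand), all of it inside a WT peak; the bases further upstream belong to the neighbouring gene ARHGDIG and are left out. ANPEP, the cell-surface aminopeptidase N, is shown from chr15:89806629-89806878 (minus strand), where the DNAJC12KO peak covered 83 bases. This start and the bases shown lie inside the ANPEP record, which runs to 89814852. Whether these bases include exon sequence was not checked.
MEFV: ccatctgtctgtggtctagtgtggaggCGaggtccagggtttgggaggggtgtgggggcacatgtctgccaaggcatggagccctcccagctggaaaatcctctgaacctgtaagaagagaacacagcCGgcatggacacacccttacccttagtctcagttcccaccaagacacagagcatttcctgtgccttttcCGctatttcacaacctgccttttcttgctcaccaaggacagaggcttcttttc
MYL11: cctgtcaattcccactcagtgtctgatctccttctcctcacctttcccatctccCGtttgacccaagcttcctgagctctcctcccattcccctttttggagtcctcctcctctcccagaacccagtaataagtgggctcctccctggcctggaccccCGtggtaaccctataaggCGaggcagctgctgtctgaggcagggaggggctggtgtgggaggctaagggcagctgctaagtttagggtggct
PDIA2: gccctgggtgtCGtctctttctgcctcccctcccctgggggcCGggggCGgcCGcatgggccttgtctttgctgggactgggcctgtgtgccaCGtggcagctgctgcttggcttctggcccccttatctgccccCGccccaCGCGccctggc
ANPEP: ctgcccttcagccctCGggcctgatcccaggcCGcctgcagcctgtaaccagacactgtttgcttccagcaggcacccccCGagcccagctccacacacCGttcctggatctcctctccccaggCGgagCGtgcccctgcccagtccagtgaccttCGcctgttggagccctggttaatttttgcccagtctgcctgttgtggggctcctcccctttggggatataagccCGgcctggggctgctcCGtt
In the full 250 bases MEFV and MYL11 hold 3 CG dinucleotides each, ANPEP holds 9 and PDIA2 holds 11. The covered starts of LINGO1, a co-receptor of the Nogo receptor and one of the neural genes of chromosome 15, hold 10 and 9. Both starts lie inside the LINGO1 record, which runs to 77820900. The median over the 2333 promoter entries of chromosomes 14 to 16 was 18 (quartiles 7 and 27), and 32.7% of those entries hold at most 11. All 5 covered genes thus sat below the median, which is a description of 5 genes and was not tested.

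The authors gave every peak a fold enrichment and a -log10 q, which are used here as descriptions of the peaks of that list. The WT peak at MEFV had the highest fold of all WT peaks on these chromosomes, 5.01 with a -log10 q of 2.68. The folds at the other covered promoters were lower, 4.14 at PDIA2, 3.86 at MYL11 and 3.48 at LINGO1 in the WT list, and 4.03 at ANPEP in the DNAJC12KO list. More widely, the centres of 7 of 176 WT peaks (3.98%, exact Clopper-Pearson 95% interval 1.61 to 8.02) and 6 of 245 DNAJC12KO peaks (2.45%, 0.904 to 5.25) lay within 1 kb of a RefSeq transcription start. The median distance was 14.3 kb for WT peaks and 19.8 kb for DNAJC12KO peaks. All intervals here are of this kind and cover counting error only.

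Peaks also covered 3 microRNA hairpins of these chromosomes, of 226 with a RefSeq entry. MIR4722, inside PIEZO1 at the 16q end, lay wholly in a WT peak of fold 3.68 (chr16:88716278-88716337, minus strand). MIR1276, inside KLHL25 on chromosome 15, lay wholly in a DNAJC12KO peak of fold 3.69 (chr15:85770496-85770578, minus strand). MIR433, in the imprinted DLK1-MEG3 region of chromosome 14 and inside the record of RTL1, shared 28 of its 93 bases with a DNAJC12KO peak of fold 3.44 (chr14:100881886-100881978, plus strand). Over all chromosomes 0.320% of hairpins overlapped a WT peak and 0.384% a DNAJC12KO peak. The mature sequences of these 3 hairpins follow from RefSeq. At MIR433 the peak reached only the first 28 hairpin bases, so its mature sequences do not both lie under the peak. Capitals mark the seed, bases 2 to 8, the stretch that pairs with target RNAs.
hsa-miR-4722-5p: gGCAGGAGggcugugccagguug
hsa-miR-4722-3p: aCCUGCCAgcaccucccugcag
hsa-miR-1276: uAAAGAGCccuguggagaca
hsa-miR-433-5p: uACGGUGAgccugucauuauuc
hsa-miR-433-3p: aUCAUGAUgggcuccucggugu
No seed occurs more than once among these 5. The nearest peak of the other genotype lay 18.2 kb from the MIR4722 peak, 736 kb from the MIR433 peak and 3552 kb from the MIR1276 peak.

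Chromosome 16 carried most of the peaks. It held 106 WT and 132 DNAJC12KO peaks, against 47 and 67 on chromosome 14 and 23 and 46 on chromosome 15. Per megabase of annotated span this was 1.18 and 1.46 on chromosome 16, 0.517 and 0.737 on chromosome 14 and 0.280 and 0.560 on chromosome 15, where the whole lists had 0.642 and 0.909. Set against gene content the same order held, with 12.5 WT and 15.6 DNAJC12KO peaks per 100 protein-coding genes on chromosome 16, 7.79 and 11.1 on chromosome 14 and 3.82 and 7.64 on chromosome 15. The whole lists had 9.75 and 13.8. In both genotypes chromosome 16 was thus above the lists as a whole and chromosomes 14 and 15 below them.

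The 3 chromosomes took nearly the same share of each list, 9.09% of WT peaks (7.84 to 10.5) and 8.93% of DNAJC12KO peaks (7.89 to 10.1). There were 1.39 DNAJC12KO peaks for each WT peak, close to the 1.42 of the whole lists. By chromosome the ratio was 2 on chromosome 15, 1.43 on chromosome 14 and 1.25 on chromosome 16. The shares of the lists on chromosome 15, 1.19% (0.754 to 1.78) and 1.68% (1.23 to 2.23), had overlapping intervals. The surplus of DNAJC12KO peaks depended on the threshold. A fold of 4 or more was reached by 66 WT and 57 DNAJC12KO peaks, and a -log10 q of 2 or more by 25 and 21, so that the order turned. With the DNAJC12KO list cut to the length of the WT list by -log10 q, the counts were 176 and 180.

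The peaks were narrow in both lists, and their folds spanned similar ranges. Median width was 447 bases in WT (279 to 1871) and 487 in DNAJC12KO (293 to 1982). Fold ran from 3.29 to 5.01 in WT with a median of 3.90, and from 3.22 to 5.12 in DNAJC12KO with a median of 3.74. Fold and -log10 q rose together in both lists, except at a few wide peaks. The plot of fold against -log10 q shows 2 of these in each list, on chromosomes 15 and 16, far above the other peaks of similar fold. They are the same places in both genotypes, and they are described with the shared peaks.

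**Figure D1:**
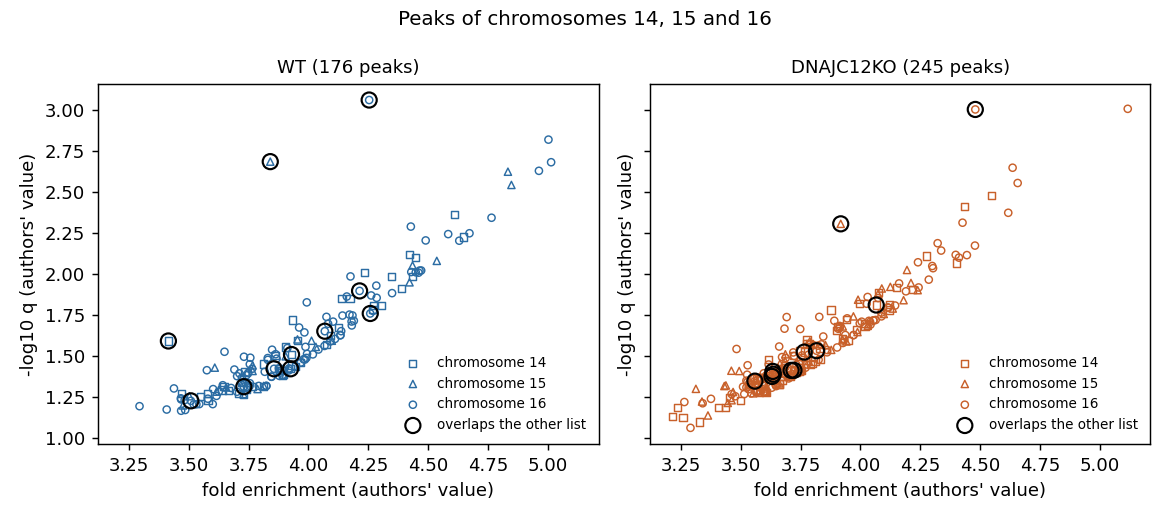
Each symbol is a peak of chromosome 14 (squares), 15 (triangles) or 16 (circles), with the authors' fold enrichment on the horizontal axis and the authors' -log10 q on the vertical axis, WT on the left and DNAJC12KO on the right; black rings mark peaks that overlap a peak of the other list. A ringed chromosome 16 peak of fold 4.25 in WT and 4.48 in DNAJC12KO, and a ringed chromosome 15 peak of fold 3.84 and 3.92, stand above the other peaks of similar fold.

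The 16p end, taken as the first 3 Mb of chromosome 16, held the most peaks of the 4 ends described here, with 45 WT and 42 DNAJC12KO peaks. It held 42.5% of the WT peaks of chromosome 16 (32.9 to 52.4) and 31.8% of the DNAJC12KO peaks (24 to 40.5), with 15.6% of the chromosome's protein-coding genes. Among the 41 chromosome ends with annotated genes, the 16p end was at rank 4 by WT count and rank 8 (tied) by DNAJC12KO count. These ranks take no account of gene number, and this end holds 132 protein-coding genes, with 34.1 WT and 31.8 DNAJC12KO peaks per 100. By megabase from the end, the WT counts were 15, 23 and 7 and the DNAJC12KO counts 14, 17 and 11. The genes here are short, with a median length of 6.74 kb against 24.5 kb for all protein-coding genes, and their promoters had a median GC content of 71.3% against 62.3%. This end thus had many peaks beside many short genes and GC-rich promoters. The part of gene density, gene length and GC content in the peak counts was not tested.

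The 16q end, the last 3 Mb before the last gene record, held 25 WT and 26 DNAJC12KO peaks. These were 23.6% (15.9 to 32.8) and 19.7% (13 to 27.5) of the chromosome's peaks, with 6.51% of its genes. Median promoter GC was 72.3%. The peaks were not spread evenly: 11 WT and 13 DNAJC12KO peaks fell between 88 and 89 Mb, and 6 and 7 between 89 and 90 Mb. Per 100 protein-coding genes the 16q end held 45.5 WT and 47.3 DNAJC12KO peaks, the 16p end 34.1 and 31.8, and the stretch between them 5.47 and 9.73.

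At the authors' threshold, both ends of chromosome 16 had about equal peak numbers in the genotypes while the stretch between them did not. The DNAJC12KO to WT ratio was 0.933 at the 16p end, 1.04 at the 16q end and 1.78 between them, where 36 WT peaks stood against 64. The whole lists had a ratio of 1.42, so equal numbers at the ends were below it and the stretch between was above it. As a share of its list, DNAJC12KO over WT was 0.659 at the 16p end, 0.734 at the 16q end and 1.26 between them. Together the ends held 70 of 106 WT peaks (66.0%, 56.2 to 75) and 68 of 132 DNAJC12KO peaks (51.5%, 42.7 to 60.3). These intervals overlap, and neighbouring peaks are not independent, so the difference was not tested. With an end of 5 Mb the 16p ratio turned to 1.06. With lists of equal length, 31 DNAJC12KO peaks stood against 45 WT peaks at the 16p end and 18 against 25 at the 16q end, so the 16q order also depends on list length. At a fold of 4 or more there were 21 WT and 12 DNAJC12KO peaks at the 16p end (ratio 0.571) and 10 and 5 at the 16q end (0.5), and at a -log10 q of 2 or more 3 and 1 at the 16q end (0.333). DNA copy number along the chromosomes was not analysed here, and its part in these counts was not tested.

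Chromosome 14 had a single crowded end. The 14q end held 26 of 47 WT peaks (55.3%, 40.1 to 69.8) and 32 of 67 DNAJC12KO peaks (47.8%, 35.4 to 60.3), with 4.98% of the chromosome's genes. This is 86.7 and 107 peaks per 100 genes, the most of the 4 ends looked at. The last of them ended at 105532972 in WT and 105532755 in DNAJC12KO. The immunoglobulin heavy chain records, 174 of them from 105586937 to 106879844, held no peak in either list. The 15q end differed from the others, with 3 WT and 4 DNAJC12KO peaks among 22 genes. Its promoters had a median GC content of 70%, not far from the 72.2% of the 14q end.

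**Figure D2:**
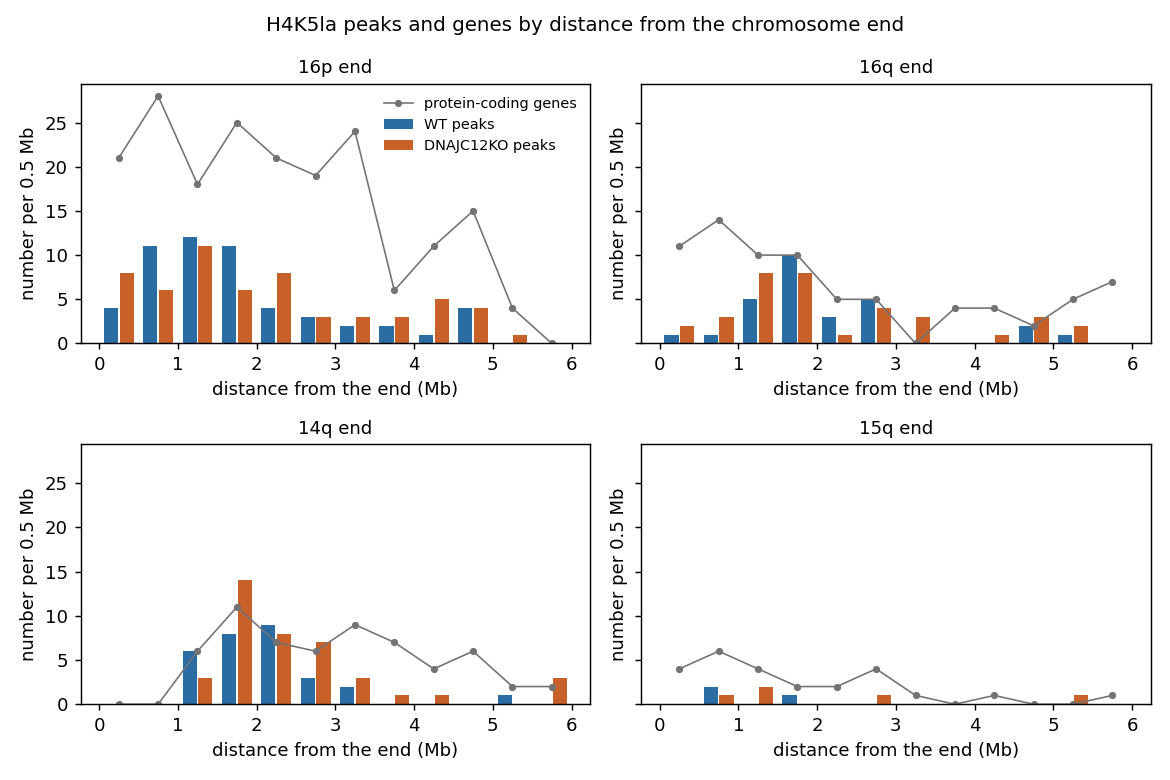
Bars count WT (blue) and DNAJC12KO (orange) peaks in steps of 0.5 Mb from the end of each chromosome arm, and the grey line counts protein-coding genes by their centres; distance at the q ends is from the last gene record. The 16p end reaches 12 WT peaks per step, the 16q end 10 WT peaks and the 14q end 14 DNAJC12KO peaks, while no step of the 15q end exceeds 2.

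Between peaks, long stretches were empty in both lists; the sequence before the earliest peak of each chromosome is not counted here. On chromosome 14 the longest ran for 27.8 Mb, from 24339638 to 52116535, with 95 protein-coding genes. On chromosome 15 it ran for 10.2 Mb, from 41880820 to 52119779, with 100 genes. On chromosome 16 it ran for 16.4 Mb, from 33339091 to 49776409, across the centromere and with 22 genes. Between WT peaks alone the longest empty stretches were 40.5, 20.2 and 23.5 Mb. Empty stretches of this length contained many genes on chromosomes 14 and 15 and few on chromosome 16.

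A gene is counted as carrying a peak at an end when a peak comes within 3 kb of either end of its RefSeq record. On chromosomes 14 to 16 this held for 79 of 2050 protein-coding genes in WT, against 3.20% of genes over all chromosomes, and for 86 in DNAJC12KO, against 3.86%. Both lists had such a peak at 19 genes, against 0.805%. WT alone had one at 60 genes, 2.93% against 2.40% over all chromosomes, and DNAJC12KO alone at 67, 3.27% against 3.05%. Chromosome 16 provided 59 of the WT genes and 62 of the DNAJC12KO genes, chromosome 14 provided 14 and 13, and chromosome 15 provided 6 and 11. The share of genes was 3.85% in WT and 4.2% in DNAJC12KO, near the background of each list. In the 16p end it was 18.2% and 19.7% of 132 genes, in the 16q end 14.5% and 12.7% of 55, and in the 14q end 26.7% and 16.7% of 30.

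The end that carried the peak was mostly the end away from the transcription start. Of the 63 WT genes whose strand is known from the promoter table, 13 had a peak near the start only, 42 near the far end only and 8 near both. Of the 66 DNAJC12KO genes the numbers were 7, 50 and 9. The far end alone thus made up 66.7% and 75.8%, where all chromosomes together had 62.3% and 65.2%. Neighbouring genes lie close together at the chromosome ends, so a peak beyond the far end of a gene can also lie near another gene's start.

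Of the 19 genes with an end peak in both lists, 17 lay in the 16p, 16q or 14q end, which together hold 217 of the 2050 genes. At the far tip of 16p these were MPG, a DNA glycosylase of base excision repair, and NPRL3, a subunit of the GATOR1 complex whose introns hold enhancers of the alpha globin genes. Both were counted from the same peaks, of fold 3.71 in WT and 3.48 in DNAJC12KO, which lie 0.512 kb apart. Next came the neighbours ARHGDIG and PDIA2, with folds of 4.14 and 4.04. ANTKMT and CCDC78, which overlap at their ends, shared peaks of fold 3.76 and 3.59. Pairs of neighbours that share a peak are therefore counted as separate genes here.

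Further into the 16p end, CCDC154 and CLCN7, the lysosomal chloride-proton exchanger, were counted from a WT peak of fold 4.07. The DNAJC12KO peak that overlaps it had a fold of 3.64, and another at 1442770 to 1443443, which does not overlap it, had 4.04. TMEM204 had folds of 4.13 and 4.14 at peaks only 0.045 kb apart. Both of these peaks lay outside TMEM204 and inside IFT140. IGFALS, which encodes the acid-labile subunit that carries insulin-like growth factors in blood, had 4.45 in WT and 3.53 in DNAJC12KO, 2.24 kb apart. The other 16p genes were CHTF18, part of an alternative clamp loader of the replication fork, TBL3, a ribosome biogenesis factor, and NHERF2, a scaffold with PDZ domains. At the 16q end only CYBA, a subunit of the NADPH oxidase (4.16 and 3.91), and VPS9D1 (3.86 and 3.63) qualified. SMPD3, a neutral sphingomyelinase, was the member of the list on chromosome 16 outside its ends (3.63 and 3.51).

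Chromosome 14 had 3 such genes and chromosome 15 had none. TRMT61A, the catalytic subunit of a tRNA methyltransferase, had end peaks of fold 4.13 in WT and 3.78 in DNAJC12KO, 1.17 kb apart, and a further DNAJC12KO peak of fold 4.55 inside the gene. TEDC1, a tubulin-associated protein of centrioles, had 3.88 and 3.67. TMEM121 had overlapping peaks of fold 3.93 and 3.77. Over all 19 genes the closest WT and DNAJC12KO peaks overlapped at 5 and lay within 1 kb at 11, with a median gap of 0.878 kb. Carrying a peak in both lists thus did not mean the same peak at most of these genes. The 19 genes fell to 0 at a -log10 q of 2 or more, to 5 at a fold of 4 or more and to 5 with a window of 1 kb, and rose to 70 with 10 kb.

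Among the genes with an end peak in WT alone, those with the highest -log10 q on chromosome 14 were JAG2, a Notch ligand (fold 4.65), CCNK, the cyclin partner of CDK12 and CDK13 (4.42), and TGM1, the transglutaminase of the skin barrier (4.23). JAG2 and TGM1 each also had DNAJC12KO peaks inside the gene, 3 and 1. The CCNK peak lay outside CCNK and inside its neighbour CCDC85C, which held 2 WT and 2 DNAJC12KO peaks. On chromosome 15 the leading genes were CSPG4, the NG2 proteoglycan (4.43), and the neighbours ANKRD63 and PLCB2, which share a peak of fold 3.79. CSPG4 had a DNAJC12KO peak of fold 3.94 at 2.01 kb from the WT peak. On chromosome 16 the leading genes were MEFV (5.01), BICDL2 (4.63) and the predicted gene LOC124903619 (4.43). The peak of LOC124903619 lay outside its record and inside LMF1, which held 2 WT peaks and 1 DNAJC12KO peak. Absence from the other list means only that no peak passed the authors' threshold there.

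Among the genes with an end peak in DNAJC12KO alone, MMP15, a membrane-type matrix metalloproteinase, had the highest fold of these chromosomes, 5.12 with a -log10 q of 3.0. Its peak spanned 58046586 to 58046897, inside the gene and at the end away from the start, and the nearest WT peak was 259 kb away. ROGDI and SMIM22 shared a peak of fold 4.62. On chromosome 14 the leading genes were TUNAR, known for a long noncoding RNA of neural differentiation (4.43), BTBD6 (3.94) and DCAF11, a substrate receptor of an E3 ubiquitin ligase (3.98). On chromosome 15 they were MFGE8, a secreted protein that bridges dying cells to phagocytes (4.07), and ISL2, a LIM homeobox factor of motor neurons, which shares a peak of fold 3.99 with the predicted gene LOC124903532. The nearest WT peak to the TUNAR peak was 1833 kb away. The BTBD6 peak lay outside BTBD6 and inside BRF1, which held 3 WT and 4 DNAJC12KO peaks, this one included.

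Counting peaks anywhere in the gene record as well, 141 genes qualified in WT, against 6.49% of genes over all chromosomes, and 175 in DNAJC12KO, against 8.26%. Both lists qualified at 59 genes, 2.88% against 2.93% over all chromosomes, 44 of them on chromosome 16, 13 on chromosome 14 and 2 on chromosome 15. In 18 genes the lists together placed 4 or more peaks inside the record. BRF1, a subunit of the RNA polymerase III initiation factor TFIIIB at the 14q end, held 3 WT and 4 DNAJC12KO peaks. GSE1, a partner of histone deacetylase complexes on 16q, also held 3 and 4, over a record of 507 kb against 106 kb for BRF1. INF2, a formin that remodels actin, held 3 and 3.

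Other genes with many peaks were uneven between the lists. CACNA1H, which encodes the T-type calcium channel Cav3.2 at the 16p end (1153106 to 1221768), held 6 WT peaks and no DNAJC12KO peak. The WT folds were 4.96, 3.75, 4.35, 3.88, 4.02 and 4.18 in order along the chromosome, and the nearest DNAJC12KO peaks lay 27.4 to 56.6 kb from them. KIF26A, an atypical kinesin at the 14q end (104138587 to 104180894), held 4 DNAJC12KO peaks and no WT peak. Its folds were 3.59, 3.71, 3.79 and 3.61, and the nearest WT peaks lay 27.2 to 33.5 kb away. Both genes were picked out after their values were seen, and all of these folds lay within the range of their list. Over all chromosomes, 96 genes held 4 or more peaks in a list, 3 of them had 4 or more in WT and none in DNAJC12KO, and 10 the reverse.

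Less extreme differences were seen at further genes of the 14q and 16q ends. AKT1, the growth factor signalling kinase of 14q32, held 1 WT peak (fold 3.64) and 4 DNAJC12KO peaks (3.26 to 4.02). CEP170B, a centrosomal protein gene nearby, held 4 WT peaks (3.47 to 4.39) and 2 DNAJC12KO peaks (3.60 and 4.02). At the 16q end ZFPM1, a cofactor of GATA factors, held 3 WT peaks with folds of 3.72, 5.00 and 4.67 and 1 DNAJC12KO peak of 3.60. ZNF469, whose loss causes brittle cornea, held 1 WT peak (4.18) and 4 DNAJC12KO peaks (3.46 to 3.91). GALNS, a lysosomal sulfatase, held 1 (3.85) and 3 (3.61 to 4.16). Genes of the same end thus had their surplus in different lists.

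**Figure D3:**
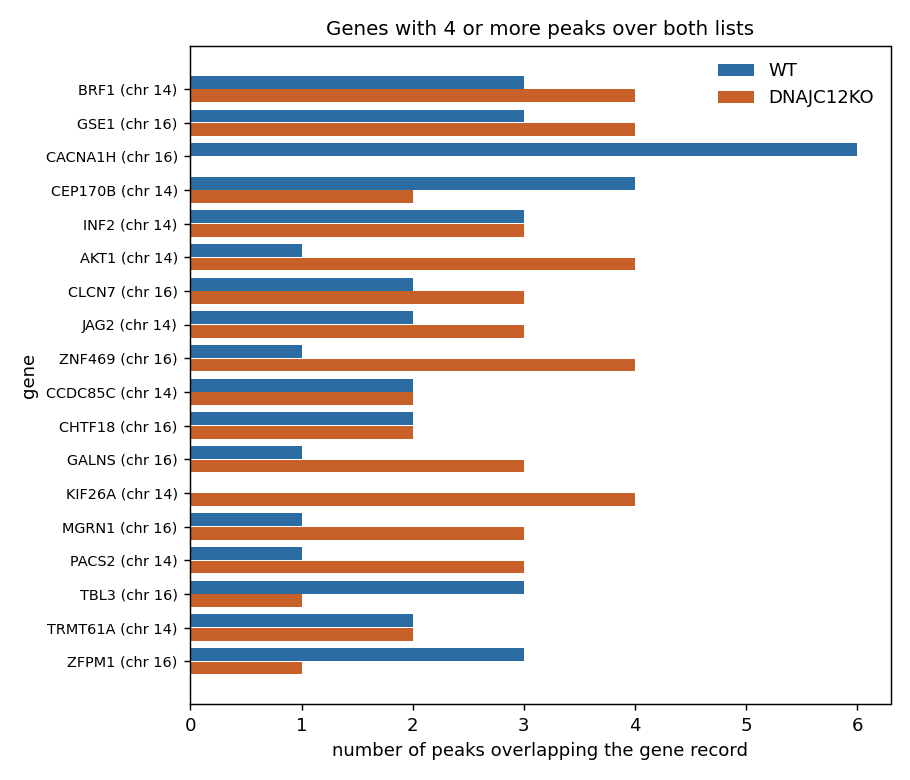
Bars count the peaks that overlap the RefSeq record of each of the 18 genes with 4 or more peaks over both lists, WT in blue and DNAJC12KO in orange. CACNA1H has 6 WT peaks and no DNAJC12KO peak, KIF26A has 4 DNAJC12KO peaks and no WT peak, and INF2 has 3 of each.

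Peaks shared between the genotypes were few. At a minimum overlap of 1 bp, 11 of 176 WT peaks (6.25%, 3.16 to 10.9) overlapped a DNAJC12KO peak, against 8.88% of the whole list, and 11 of 245 DNAJC12KO peaks (4.49%, 2.26 to 7.89) overlapped a WT peak, against 6.31%. Chromosome 16 held 7 of the 11 pairs, chromosome 14 held 3 and chromosome 15 held 1. At the 14q end there were 2 pairs inside BRF1 and 1 next to TMEM121. At the 16p end the pairs lay in CHTF18, CLCN7, TBL3 and NHERF2. The 16q end gave a pair in VPS9D1, and the stretch between the ends gave 1 in GSE1 and 1 outside protein-coding genes.

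The strongest of the shared places lay in sequence near the centromere of chromosome 16. The WT peak spanned 33337552 to 33339017 with a fold of 4.25 and a -log10 q of 3.06, rank 9 of 1937. The DNAJC12KO peak spanned 33337625 to 33339091 with a fold of 4.48 and a -log10 q of 3.0, rank 17 of 2743. It was 21.8 kb from TP53TG3B, a gene with close copies: the annotation holds 8 records whose names start with TP53TG3, all on chromosome 16. The shared place on chromosome 15, 20340294 to 20342164 in WT, was the widest peak of its list on these chromosomes, with folds of 3.84 and 3.92 and a -log10 q of 2.68 and 2.31. It lay 8.17 kb from the predicted gene LOC124903442. Both places lie in regions known for copied sequence, where reads can map to more than 1 copy. The treatment of such reads is not given in the sources used here, and their part was not tested.

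Of the peaks that did not overlap, 54 of 165 in WT (32.7%, against 34.3% of the whole list) and 54 of 234 in DNAJC12KO (23.1%, against 25%) lay within 10 kb of a peak of the other list. In the 14q end the shares were 52.2% and 34.5%, in the 16p end 41.5% and 47.4%, and in the 16q end 37.5% and 36%. The 15q end had none, and the whole of chromosome 15 had 2 in each list. Over all peaks, overlapping ones included, the median distance was 14.7 kb for WT peaks of chromosome 14, 18.6 kb for chromosome 16 and 395 kb for chromosome 15. Distances shrink where peaks are crowded, so these values follow the peak counts and do not by themselves show shared sites.

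**Figure D4:**
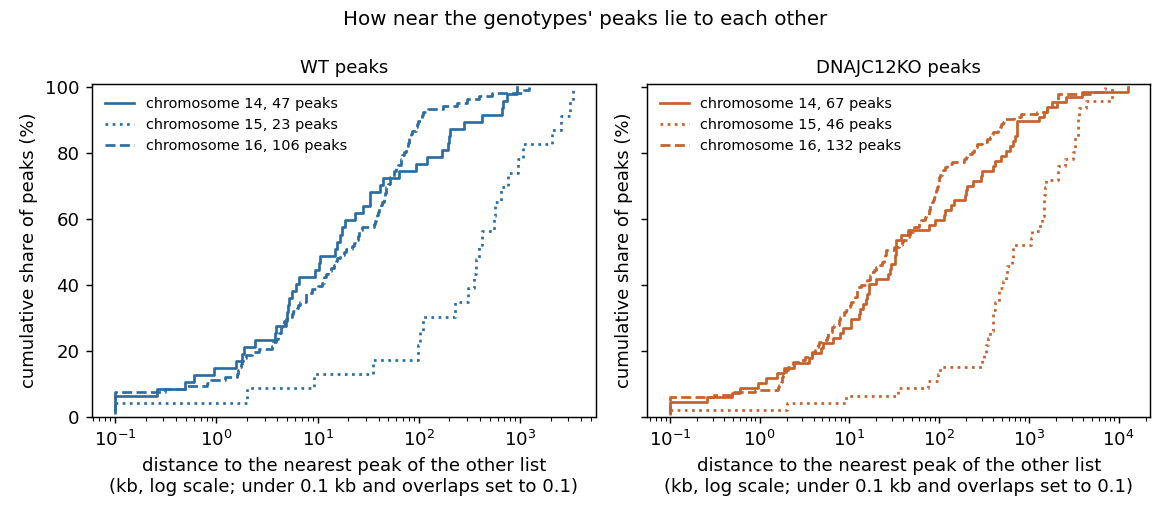
Lines give the cumulative share of peaks by distance to the nearest peak of the other list, in kb on a log scale, for WT peaks (left) and DNAJC12KO peaks (right) of chromosomes 14 (solid), 15 (dotted) and 16 (dashed); overlaps and gaps under 0.1 kb are set to 0.1 kb. Chromosome 15 lies to the right in both panels, with a median of 395 kb for WT and 669 kb for DNAJC12KO peaks.

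Each peak was also placed by its centre, a stricter rule than the one for genes above. Most centres lay inside protein-coding genes and more than 3 kb from any of their ends, 54.5% of WT peaks (46.9 to 62.1) and 55.5% of DNAJC12KO peaks (49.0 to 61.8), against 60.9% and 58.7% of the whole lists. A gene end was within 3 kb of 33.5% of the centres in WT (26.6 to 41.0) and 23.7% in DNAJC12KO (18.5 to 29.5), where the whole lists had 25.1% and 21.9%. Outside all annotated genes, and also more than 3 kb from any protein-coding gene end, were 9.09% (5.29 to 14.3) and 15.5% (11.2 to 20.7). The whole lists had 10.5% and 14.9%. The strongest of these outside WT peaks on chromosome 14 had a fold of 4.61 and lay 46.3 kb from SETD3, a histidine methyltransferase of actin. On chromosome 15, a WT peak of fold 4.83 lay 15.7 kb from ISLR2, a neural membrane protein. A DNAJC12KO peak of fold 4.64 lay 38.1 kb from SOX8, a neural crest and glial transcription factor, at 1.84 kb from a WT peak.

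The gene lists were written by location or role, and their members were set against the same counts. Of 10 genes of the alpha globin cluster and its neighbours, 3 had an end peak in WT (MPG, NPRL3 and HBM) and 2 in DNAJC12KO (MPG and NPRL3). HBM, the mu globin gene, had a WT peak of fold 4.43 and no DNAJC12KO peak. That WT peak lay 1.6 kb outside HBM, on the pseudogene HBAP1. RHBDF1, an inactive rhomboid protease, held a DNAJC12KO peak inside the gene. Of 26 signalling and channel genes of the 16p end, 4 had an end peak in WT (15.4%) and 6 in DNAJC12KO (23.1%), near the 18.2% and 19.7% of all genes of that end, with CLCN7 and NHERF2 in both. AXIN1, the scaffold of the beta-catenin destruction complex, and TELO2, which stabilises kinases of the mTOR family, had one in DNAJC12KO alone, with folds of 4.04 and 4.19. Each also held a WT peak inside the gene, of fold 4.18 and 3.47. The AXIN1 end peak lay outside AXIN1 and inside PDIA2. It is the DNAJC12KO peak already counted for ARHGDIG and PDIA2, 0.878 kb from a WT peak. STUB1, a chaperone-linked ubiquitin ligase, had 2 end peaks in WT alone, with folds of 3.92 and 3.76. Both lay outside STUB1, and the first lay inside its neighbour RHBDL1. TSC2, a brake on mTOR signalling, held 2 WT peaks inside the gene and no DNAJC12KO peak.

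Among 36 genes of 16q24, 4 had an end peak in each list (11.1%, where all genes of the 16q end had 14.5% and 12.7%). Counting the gene body, 9 had a peak in WT and 14 in DNAJC12KO (25% and 38.9%, where all genes of that end had 29.1% and 34.5%). SLC7A5, the large neutral amino acid transporter LAT1, had an end peak of fold 3.88 in WT alone, and a DNAJC12KO peak of 3.60 inside the gene at 1.98 kb from another WT peak. SNAI3, a repressor of the snail family, had an end peak of 4.40 in DNAJC12KO alone, outside the gene. PIEZO1, a mechanically gated channel, had the WT peak over MIR4722. Among 25 genes of 14q32.33, 7 had an end peak in WT (28%) and 4 in DNAJC12KO (16%), near the 26.7% and 16.7% of all genes of the 14q end. MTA1, a subunit of the NuRD complex, had a WT peak of fold 4.31 and none in DNAJC12KO. Of 21 chromatin regulators spread over the 3 chromosomes, 3 had an end peak in WT (MTA1, CHTF18 and PRMT7, an arginine methyltransferase) and 1 in DNAJC12KO (CHTF18). These are 14.3% and 4.76% of the list, against 3.20% and 3.86% of all genes. MTA1 lies in the 14q end and CHTF18 in the 16p end, where 26.7% and 18.2% of all genes had a WT end peak. The part of location in this count was not tested. PRMT7 also held a DNAJC12KO peak of fold 3.51 inside the gene.

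Lists away from the ends were almost empty. The 11 metallothioneins of 16q13, the 9 SERPINA genes of 14q32.13 and 16 golgin and NPIP genes of the duplicated regions had no peak in either list, at an end or inside. Of 36 neuronal and synaptic genes only DOC2A, a calcium sensor of vesicle release, had a peak at an end or inside, of fold 4.06 in DNAJC12KO. That peak lay outside DOC2A, within 3 kb of its end, and inside the neighbouring gene INO80E. Of 11 adrenergic and mesenchymal neuroblastoma genes only ISL2 had one. Of 8 imprinted genes of 15q11-q13, ATP10A held a WT peak inside the gene, and of 3 imprinted genes of 14q32, RTL1 had the DNAJC12KO peak that reaches MIR433. Over all chromosomes 3.20% of genes in WT and 3.86% in DNAJC12KO carried an end peak. For a peak at an end or inside, the shares were 6.49% and 8.26%. The 36 neuronal and synaptic genes, with 0% and 2.78% at an end or inside, lay below these. Counts of 0 or 1 in lists this short say little, and no difference from the background was tested.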

How the data were processed

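The deposited files are 1 broad peak list per genotype, called by the authors with MACS2 2.2.6 on hg38, per the submitters' processing notes. Each list is named for a genotype's input and immunoprecipitated library alike and was taken as that of the latter. The authors' values used are the fold enrichment, a linear ratio over background, and the deposited -log10 q; the -log10 p was not used. Not given in the sources used here are the aligner, read filters, calling options, use of the input and any spike-in scaling. Both lists stop near a -log10 q of 1 (1.03 in WT, 1.01 in DNAJC12KO).

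Genes were 58961 RefSeq records of GRCh38.p14 (19866 protein-coding; 831 records on other sequences left out), with start and end but no strand; strand and starts came from the RefSeq promoter table. No member was filtered out. Named genes were the leading ones per chromosome and list by -log10 q, those with most peaks inside, and up to 4 per gene list. The members, lists and settings were chosen with earlier results of these data known. Intervals were computed with scipy 1.17.1 under Python 3.11.15. The overlap and gene counting were tested on simulated data. Coordinates are 1-based.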

Additional observations from a re-analysis of the deposited data

Results flagged for a closer look

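The lists also hold peaks on sequences other than chromosomes 1 to 22, X and Y, which the comparisons did not use: 6 WT peaks and 12 DNAJC12KO peaks. Whether any of them belongs to unplaced parts of chromosomes 14, 15 or 16 was not tested.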

How the results depend on the processing

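No paired analysis was possible because each group has only replicate 1. With 1 library per group and unknown depth, every count rests on the authors' threshold. With a -log10 q of at least 2, chromosomes 14 to 16 held 25 WT and 21 DNAJC12KO peaks (12.4% and 7.66% of the lists; ratio 0.84), the 16p end 7 and 5, and the 16q end 3 and 1 (ratio 0.333); 9.52% of DNAJC12KO peaks were shared, and end peaks were found at 0 genes in both lists, 10 in WT only and 8 in DNAJC12KO only. With a fold of at least 4 the counts were 66 and 57 (12% in each list; ratio 0.864), 21 and 12 at the 16p end (ratio 0.571) and 10 and 5 at the 16q end (ratio 0.5); 1.52% of WT and 1.75% of DNAJC12KO peaks were shared, and the gene counts were 5, 23 and 23. With lists of equal length the 16q ratio was 0.72, and with an end of 5 Mb the 16p ratio was 1.06. A gap of at most 1 kb raised the shared WT peaks to 11.4%, and a gap of at most 10 kb gave 36.9% of WT and 26.5% of DNAJC12KO peaks. Genes in both lists, in WT only and in DNAJC12KO only numbered 5, 27 and 34 for a 1 kb window, but 70, 102 and 126 for a 10 kb window. Counting the whole gene gave 59 in both and 116 in DNAJC12KO only. Counting only the RefSeq promoter, an alternative chosen after seeing the data, gave 0, 4 and 1. Of the 41 named genes, the number of lists with an end peak was the same for 21 with the -log10 q of at least 2, 28 with the fold of at least 4, 21 with the 1 kb window, 25 with the 10 kb window, 25 with the whole gene and 40 with lists of equal length. The cause of these shifts was not tested, other than that stricter thresholds leave fewer peaks and wider windows take in more.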
